A study of Homo sapiens with 2 samples.

Results

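The plasminogen activator and tissue factor system was examined in U87, a human glioblastoma line that has long been in culture. Its members were 9 genes listed by their function, out of 41582 gene symbols in the table. They were the protease urokinase (PLAU), tissue plasminogen activator (PLAT), the urokinase receptor (PLAUR), and the serpins SERPINE2 and SERPINB2. The others were tissue factor (F3), its inhibitor TFPI, the TFPI-related inhibitor TFPI2, and thrombomodulin (THBD). This list does not hold every gene of the system. The cells, with the genotype given as WT, were grown in RPMI medium with serum and exposed for 72 h either to DMSO, the vehicle, or to the curcumin analog CCA-1.1. The concentration of CCA-1.1 used for sequencing is not given in the sources used here. There was 1 library per condition, so no difference below can be set against replicates and none carries a p-value. Values are TPM, a level per transcript length and per library total, summed over the transcripts of a gene. TPM does not keep the read depth, so the depth of both libraries is unknown and no interval for counting error is given. A difference is log2(TPM + 1) in CCA-1.1 minus log2(TPM + 1) in DMSO, which makes changes of low genes look smaller than they are.

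Urokinase and tissue plasminogen activator are serine proteases that cut plasminogen to plasmin, which dissolves fibrin and degrades the extracellular matrix. Urokinase does so largely on the cell surface, bound to its receptor, and this system is known from studies of invasion in glioblastoma. Serpins such as protease nexin-1 (SERPINE2) and plasminogen activator inhibitor 2 (SERPINB2) trap these proteases in inactive complexes. Tissue factor is the membrane protein that starts blood clotting with factor VIIa, TFPI inhibits that step, and thrombomodulin turns thrombin toward the activation of protein C. TFPI2, a Kunitz-type inhibitor related to TFPI, inhibits plasmin and trypsin and is found mainly in the extracellular matrix.

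The libraries were first compared with marker lists. Of 7 glioma markers, 6 averaged 1 TPM or more, and the astrocyte marker GFAP was not among them, at 0.41 TPM with DMSO and 0.57 TPM with CCA-1.1. VIM was at 3217 TPM and 3106 TPM, CD44 at 607.4 TPM and 472.6 TPM, and FN1 at 11241 TPM and 9088 TPM, while OLIG2 was at 5.64 TPM and 7.03 TPM, NES at 7.53 TPM and 7.62 TPM, and SOX2 at 1.87 TPM and 1.45 TPM. Of 5 endothelial markers, 1 reached that level (PECAM1, 3.41 TPM and 2.71 TPM), the 5 together summed to 4.54 TPM and 3.60 TPM, and VWF was at 0.12 TPM and 0.19 TPM. Of 5 blood and myeloid markers, CD68, a lysosomal protein, was at 494.2 TPM and 397.1 TPM, while PTPRC was at 0.09 TPM and 0.07 TPM and AIF1 was listed at 0 in both libraries. The epithelial markers EPCAM and CDH1 summed to 0.34 TPM and 0.22 TPM.

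RefSeq promoter windows of 300 bases, from 250 bases before an annotated start site to 50 after it (GRCh38.p14), were matched for 7 of the 9 genes. PLAU and SERPINE2 have 2 windows each, which lie inside the stretch annotated for the gene and not at its outer end. PLAT and THBD had no entry. Shown here are the windows of the 3 genes with the largest differences and that of F3, which hardly differed, written 5′ to 3′ on the gene's strand. Capitals mark the letters TGANTCA, a form of the AP-1 binding sequence, which was searched on both strands.
TFPI2 (chr7:93890704-93891003, minus strand): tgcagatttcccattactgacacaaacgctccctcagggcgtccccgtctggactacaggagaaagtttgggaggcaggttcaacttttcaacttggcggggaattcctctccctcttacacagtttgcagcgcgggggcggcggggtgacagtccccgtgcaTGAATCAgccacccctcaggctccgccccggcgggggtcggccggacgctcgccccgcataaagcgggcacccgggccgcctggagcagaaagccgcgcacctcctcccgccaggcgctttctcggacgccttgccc
PLAU (chr10:73910882-73911181, plus strand, the second of 2 start windows): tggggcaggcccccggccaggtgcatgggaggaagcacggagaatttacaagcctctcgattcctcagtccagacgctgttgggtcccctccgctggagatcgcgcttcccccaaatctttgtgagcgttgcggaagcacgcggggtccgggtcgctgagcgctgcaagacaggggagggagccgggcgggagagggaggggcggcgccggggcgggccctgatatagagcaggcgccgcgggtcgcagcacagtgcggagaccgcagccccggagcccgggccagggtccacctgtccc
SERPINB2 (chr18:63887455-63887754, plus strand): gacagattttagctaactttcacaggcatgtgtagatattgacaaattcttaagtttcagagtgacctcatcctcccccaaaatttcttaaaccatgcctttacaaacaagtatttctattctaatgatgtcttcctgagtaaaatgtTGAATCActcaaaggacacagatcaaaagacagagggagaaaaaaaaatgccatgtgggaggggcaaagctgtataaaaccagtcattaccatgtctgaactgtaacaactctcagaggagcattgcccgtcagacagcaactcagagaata
F3 (chr1:94541710-94542009, minus strand): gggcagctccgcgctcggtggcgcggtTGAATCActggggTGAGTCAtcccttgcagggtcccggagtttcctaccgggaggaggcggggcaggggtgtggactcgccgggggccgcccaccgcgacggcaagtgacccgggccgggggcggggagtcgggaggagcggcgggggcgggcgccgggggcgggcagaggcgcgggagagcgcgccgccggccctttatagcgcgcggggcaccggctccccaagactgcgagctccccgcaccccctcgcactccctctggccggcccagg
These letters were in 4 of the 9 windows, belonging to 4 of the 7 genes, and in 7.71% of all 35116 promoter windows. The motifs were chosen after the windows of these genes had been read, so these shares do not test for an excess. TFPI2 held them as TGAATCA, starting 87 bases before the start site, and SERPINB2 as TGAATCA at 102 bases. PLAUR held TGAGTCA at 186 bases before its start, and F3 held both forms, TGAATCA at 223 bases and TGAGTCA at 210 bases. The windows of PLAU, SERPINE2 and TFPI did not hold these letters, which says only that they are not in these 300 bases. The letters TATAAA, on either strand, were in the windows of SERPINB2, at 30 bases before the start, and F3, at 28 bases, and in 11.5% of all windows. The letters GGGCGG, a GC box, were on either strand in 5 of the 9 windows of these genes (the second of PLAU, both of SERPINE2, and those of F3 and TFPI2), and in 45.0% of all windows. A match of letters is a description and not a binding site.

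Of the 9 genes, 7 were lower and 2 were higher in the CCA-1.1 library. The 2 were PLAT and THBD, and no direction is read from THBD, as given below. The 3 largest differences were those of TFPI2, PLAU and SERPINB2, each lower by more than 1.5-fold, and no gene was higher by that much. Among all 15485 genes averaging 1 TPM or more, 2.82% were lower past 1.5-fold and 4.24% were higher, and among protein-coding genes at that level, to which all members belong by type, 0.739% were lower and 0.972% higher. No member passed 2-fold as a gene sum, which 1.67% of genes passed as lower and 1.89% as higher. The study used that fold together with a p-value and lists its results by transcript, so the 2 uses are not alike. Transcripts of the members are given below. THBD was the only member under a mean of 1 TPM. The median difference over all 9 genes was -0.29. Over the 8 members averaging 1 TPM or more it was -0.36, with 7 of them lower. Over the 15485 genes, which were held to the same minimum, it was 0.03, with 43.7% of those genes lower in CCA-1.1. RNA was taken from whole cultures, so fewer cells expressing a gene and less RNA of it per cell cannot be told apart.

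**Figure D1:**
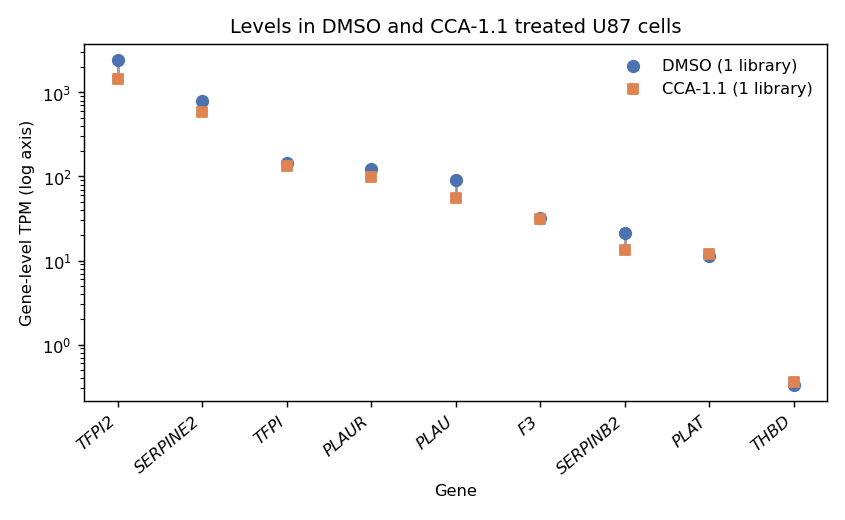
Gene-level TPM (log axis) of the 9 genes in the DMSO library (circles) and the CCA-1.1 library (squares), each a single library, ordered by mean level and joined by a line per gene. The order of the genes was the same in both libraries, and the widest gaps are those of TFPI2 (2419 and 1454 TPM), PLAU (90.1 and 55.6 TPM) and SERPINB2 (21.1 and 13.5 TPM).

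The levels spanned from TFPI2, the highest, down to THBD, and the order of all 9 genes was the same in both libraries, as the plot of gene levels shows. It ran TFPI2, SERPINE2, TFPI, PLAUR, PLAU, F3, SERPINB2, PLAT and THBD. With 1 library per condition there is no spread against which neighbours in this order could be compared. Together the 9 genes held 3633 TPM with DMSO and 2393 TPM with CCA-1.1, that is 0.363% and 0.239% of a library. TFPI2 accounted for 77.8% of the difference between these sums.

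Of the activators, PLAU (Entrez identifier 5328, chromosome 10, 73908832 to 73917494) stood at 90.1 TPM with DMSO and at 55.6 TPM with CCA-1.1. The CCA-1.1 value was 38.3% lower, a difference of -0.69. Among the 3005 other genes whose mean TPM was within 2-fold of that of PLAU, 32 were lower past 1.5-fold (1.06%), and 22 had a lower difference than PLAU. PLAT, on chromosome 8, was at 11.3 TPM with DMSO and 12.1 TPM with CCA-1.1, a difference of 0.09. The activators therefore did not differ alike: the level of PLAU was 7.98 times that of PLAT in the DMSO library and 4.60 times in the CCA-1.1 library.

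PLAUR (Entrez identifier 5329, chromosome 19, 43646095 to 43670169), the membrane anchor of urokinase, was at 122.7 TPM with DMSO and 99.8 TPM with CCA-1.1, a difference of -0.29. This is 18.6% lower and under 1.5-fold. It lay at the lower edge of genes of like level, where the 5th percentile was -0.29. The summed TPM of PLAUR was 1.36 times that of PLAU in DMSO and 1.80 times in CCA-1.1. That sum includes a transcript that encodes a form without the anchor. NM_002659.4 alone, which encodes the anchored form, was at 81.8 TPM in DMSO, under the 90.1 TPM of PLAU. In CCA-1.1 it was at 73.0 TPM, above the 55.6 TPM of PLAU. These are RNA levels and not amounts of receptor or ligand protein.

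The serpins were both lower in the CCA-1.1 library, by unequal amounts. SERPINE2 (Entrez identifier 5270, chromosome 2, 223975045 to 224039286), which inhibits thrombin as well as the plasminogen activators, was at 791.6 TPM with DMSO and 592.6 TPM with CCA-1.1. Its difference of -0.42 was 1.34-fold, the closest to the 1.5-fold criterion among the genes that did not pass it, and 7 of 298 other genes of like level had a lower one. SERPINB2 (Entrez identifier 5055, chromosome 18, 63887705 to 63903888), which mainly inhibits urokinase, was at 21.1 TPM with DMSO and 13.5 TPM with CCA-1.1. Its difference was -0.61, just past the criterion of 0.58, and 68 of 4838 other genes of like level had a lower one (1.41%). The TPM of SERPINE2 was 8.78 times that of PLAU in DMSO and 10.7 times in CCA-1.1, while it was 70.1 times that of PLAT in DMSO and 49.0 times in CCA-1.1. The inhibitor thus stood higher over urokinase and less high over tissue plasminogen activator in the CCA-1.1 library.

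F3 (Entrez identifier 2152, chromosome 1, 94529173 to 94541759) was at 32.4 TPM with DMSO and 31.2 TPM with CCA-1.1, a difference of -0.05. TFPI (Entrez identifier 7035, chromosome 2, 187464230 to 187554435) was at 144.5 TPM with DMSO and 133.8 TPM with CCA-1.1, a difference of -0.11. Tissue factor and its direct inhibitor thus differed by less than 1.1-fold each. Their ratio was also close, since TFPI had 4.47 times the TPM of F3 in DMSO and 4.28 times in CCA-1.1.

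TFPI2 (Entrez identifier 7980, chromosome 7, 93885396 to 93890753) was by far the most abundant member and the one with the largest difference. It was at 2419 TPM in DMSO, where it ranked 30 among 19938 protein-coding genes, and at 1454 TPM in CCA-1.1, where it ranked 72. The CCA-1.1 value was 39.9% lower, a difference of -0.73 or 1.66-fold. Of 106 other genes with a mean within 2-fold of its own, 3 were lower past 1.5-fold (2.83%) and 2 had a lower difference than TFPI2. TFPI2 had 74.8 times the TPM of F3 in DMSO and 46.5 times in CCA-1.1.

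THBD (Entrez identifier 7056, chromosome 20, 23045633 to 23049672), a gene typical of endothelium, was at 0.33 TPM with DMSO and 0.36 TPM with CCA-1.1. Both values are under 1 TPM and differ by 0.03 TPM, with no depth known, so no direction is read from them. The low endothelial markers given above stood beside this level.

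**Figure D2:**
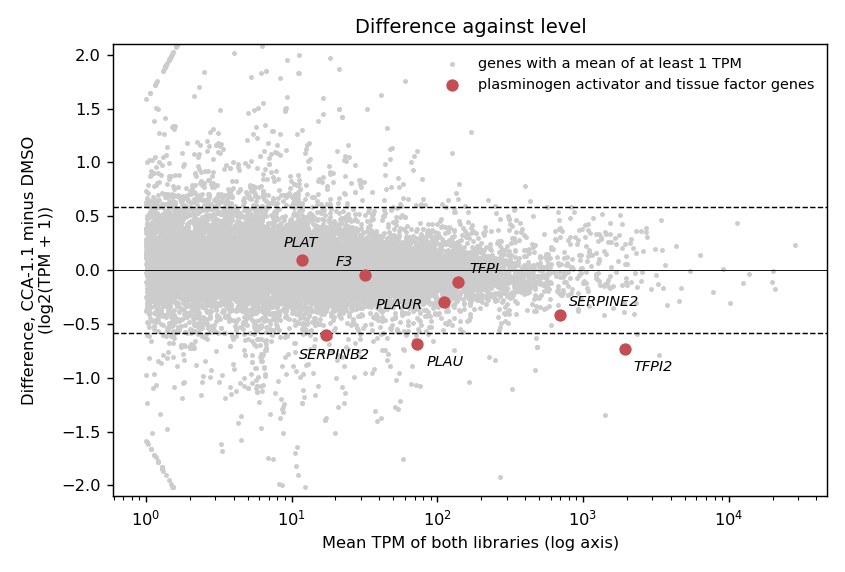
Difference between the libraries (log2(TPM + 1), CCA-1.1 minus DMSO) against the mean TPM of both (log axis), for all genes averaging 1 TPM or more (grey) and the 8 plasminogen activator and tissue factor genes at that level (red), with 1.5-fold as dashed lines. TFPI2 (-0.73), PLAU (-0.69) and SERPINB2 (-0.61) lie below the lower line, SERPINE2 (-0.42) and PLAUR (-0.29) between it and 0, and TFPI, F3 and PLAT close to 0; 279 grey genes lie beyond the axis limits of 2.1.

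The same genes were then followed by transcript. The table lists 54 transcripts of the 9 genes, and 22 of them averaged 1 TPM or more. Of these 22, 20 were lower and 8 were lower past 1.5-fold, and none was higher past it. Among all 34503 transcripts at that level, 45.9% were lower, 8.08% were lower past 1.5-fold and 9.94% were higher past it. Transcripts of a gene are not independent, because Kallisto divides the reads they share among them by estimation.

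In TFPI2 all 3 transcripts were lower in near equal proportion. The main transcript NM_006528.4 was at 2374 TPM with DMSO and 1429 TPM with CCA-1.1, and it held 98.2% of the gene in DMSO and 98.3% in CCA-1.1. NM_001271004.2 was at 41.9 TPM and 23.4 TPM, and NM_001271003.2 was at 2.85 TPM and 1.70 TPM. The composition of the gene was therefore almost the same while its level differed.

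In PLAU both transcripts averaging 1 TPM or more were lower past 1.5-fold. NM_002658.6, the main one, was at 85.8 TPM with DMSO and 54.1 TPM with CCA-1.1 and held 95.3% and 97.4% of the gene. The other 3 summed to 4.28 TPM with DMSO and 1.46 TPM with CCA-1.1. SERPINB2 rested on 1 transcript, NM_002575.3, at 21.0 TPM and 13.2 TPM.

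SERPINE2 was spread over 3 abundant transcripts, each lower in CCA-1.1. NM_001136530.1 was at 384.0 TPM with DMSO and 298.1 TPM with CCA-1.1, a difference of -0.36. NM_001136528.2 was at 265.5 TPM and 204.0 TPM, a difference of -0.38. NM_006216.4 was at 141.6 TPM and 90.1 TPM, a difference of -0.65, and it alone of the 3 passed 1.5-fold.

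The transcripts of PLAUR were less alike. NM_002659.4, which encodes the receptor with its membrane anchor, was at 81.8 TPM with DMSO and 73.0 TPM with CCA-1.1, a difference of -0.16. NM_001005376.3, which encodes a form without the anchor, was at 19.5 TPM and 12.8 TPM, a difference of -0.57. Its level was 23.8% of that of NM_002659.4 in DMSO and 17.5% in CCA-1.1. The predicted transcript XM_047438935.1 was at 7.62 TPM and 2.96 TPM, a difference of -1.12, the 1 member transcript of the 22 lower past 2-fold on the log2(TPM + 1) scale, which 3.38% of all transcripts averaging 1 TPM or more were. Without a pseudocount, PLAU NM_001319191.2 (2.15-fold) and PLAUR XM_047438932.1 (2.67-fold) of the 22 were also lower past it. Outside the 22, with means under 1 TPM, the predicted transcript XM_047438925.1 was at 0.37 TPM with DMSO and 1.22 TPM with CCA-1.1. XM_047438928.1, also under that mean, went the other way, at 1.19 TPM and 0.45 TPM, and no direction is read from either.

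F3 and TFPI showed little difference in their main transcripts. NM_001993.5, which encodes membrane-bound tissue factor, was at 31.3 TPM with DMSO and 30.8 TPM with CCA-1.1. NM_001178096.2, which encodes the soluble form without the transmembrane part, was at 1.03 TPM and 0.46 TPM, and held 3.18% and 1.47% of the gene. Its mean is under 1 TPM, so no direction is read from it. For TFPI, NM_001032281.4, which encodes the anchored beta form, was at 109.3 TPM and 104.4 TPM, and NM_006287.6, which encodes the secreted alpha form, was at 17.4 TPM and 15.7 TPM. The TPM of NM_006287.6 was thus 15.9% of that of NM_001032281.4 in DMSO and 15.0% in CCA-1.1. The other TFPI transcripts, such as NM_001329241.2 (9.27 and 7.56 TPM), were not assigned to a form. PLAT was carried by NM_000930.5, at 10.9 TPM and 11.4 TPM.

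Reads of a member and of another gene can be confused where their transcripts share sequence, on either strand if strand is not used. Whether strand was used is not given in the sources used here, and shared transcript sequence was not examined. By the whole annotated stretch, introns included, other genes overlap 5 of the 9 members, and none overlaps TFPI2. Of the 4 such genes with a value in the table, the highest, C10orf55 across PLAU, was at 2.59 TPM with DMSO and 2.02 TPM with CCA-1.1.

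The wider system was described with 43 further genes, of which 21 averaged 1 TPM or more and are called detected here. Of these 21, none was lower past 1.5-fold and 1 was higher, with a median difference of -0.05. Over all genes at that level 4.24% were higher past 1.5-fold, and over protein-coding genes at that level 0.972%. With 1 gene of 21 and no replicates, no result about the list is read from this count. That gene was SERPINI1, or neuroserpin, a tissue plasminogen activator inhibitor known from neurons, at 16.1 TPM with DMSO and 25.3 TPM with CCA-1.1, a difference of 0.62. It was the 1 of 3 detected genes of plasmin control to differ so, and SERPINF2 (2.85 and 2.78 TPM) and A2M (2.64 and 1.85 TPM) did not pass 1.5-fold. Plasminogen itself (PLG) was at 0.09 TPM in DMSO and was listed at 0 in CCA-1.1.

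Of 11 cell surface receptor and clearance genes, 8 were detected, none past 1.5-fold, and 3 were under a mean of 1 TPM. The detected genes ran from VLDLR, at 5.81 TPM with DMSO and 7.48 TPM with CCA-1.1, up to S100A10. VLDLR was the 1 detected gene that was higher, by 0.32, and 7 were lower. S100A10, which binds plasminogen at the cell surface as a complex with annexin A2, was at 2562 TPM with DMSO and 2527 TPM with CCA-1.1. ENO1, a glycolytic enzyme that also serves as a plasminogen receptor, was at 2472 TPM and 2222 TPM. ANXA2 was at 1535 TPM and 1439 TPM, and LRP1, which clears protease and serpin complexes, at 441.3 TPM and 423.2 TPM.

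Of 11 genes listed as clotting factors and cofactors, 3 were detected, none past 1.5-fold. F8, at 3.42 TPM with DMSO and 2.94 TPM with CCA-1.1, was the only clotting factor among the 3. VKORC1, of the vitamin K cycle, was at 190.6 TPM and 194.4 TPM, and GGCX, the carboxylase it serves, at 35.4 TPM and 29.9 TPM. Factor VII (F7), the partner of tissue factor, was at 0.01 TPM and 0.10 TPM. Of 8 anticoagulant proteins 4 were detected, led by ANXA5 (379.2 and 375.5 TPM) and PROS1, the cofactor of protein C (145.2 and 173.4 TPM). PROCR, the receptor of protein C, was at 159.4 TPM and 123.3 TPM, a difference of -0.37. Of 4 protease-activated receptors 3 were detected. The thrombin receptor F2R was at 42.1 TPM and 37.3 TPM, and F2RL1, which tissue factor complexes can cleave, at 21.7 TPM and 21.0 TPM.

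**Figure D3:**
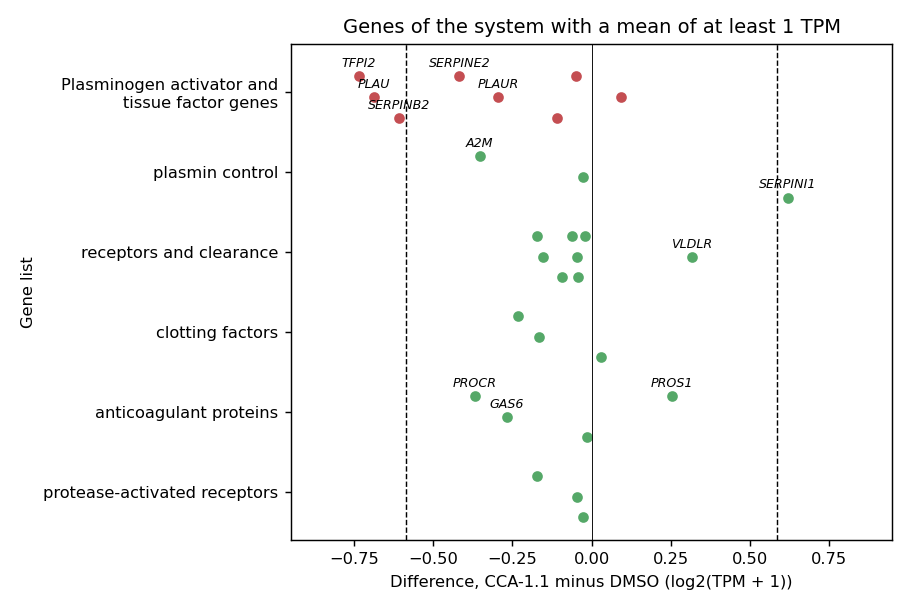
Difference between the libraries (log2(TPM + 1), CCA-1.1 minus DMSO) for genes averaging 1 TPM or more, as 1 point per gene, in the plasminogen activator and tissue factor set (red) and 5 further lists of the system (green), with 1.5-fold as dashed lines; points are set at 3 heights for legibility. TFPI2, PLAU and SERPINB2 lie past the left line, SERPINI1 (0.62) is the single gene past the right line, and the other points lie between them.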

How the data were processed

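RNA of U87 cells treated for 72 h with DMSO or CCA-1.1 was sequenced, with 1 library per condition. Per the labels and methods, the authors used a SMARTER mRNA library kit and an Illumina instrument, used FastQC 0.11.9 with MultiQC 1.1 for read quality, and ran Kallisto on GRCh38.p14 transcripts. The deposited TPM have 2 decimals, and the columns sum to 999999 and 1000000. The authors applied edgeR with a 2-fold and a p-value criterion; that test needs counts and was not used here.

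Transcripts were matched to gene symbols with a RefSeq table of GRCh38.p14 (169966 of 177816, ignoring versions where needed) and summed per gene. A pseudocount of 1 TPM was added before log2. Calls were 1.5-fold and 2-fold on that scale, without a test. The members and the gene lists were chosen with earlier results of these data known. All members were named, along with, in each further list, genes past 1.5-fold with a mean of at least 1 TPM and the 2 highest. F7, F8, PLG, PROCR, A2M, LRP1, ANXA2, VLDLR and C10orf55 were added after their values were seen. Of transcripts, those with at least 1 TPM in either library could be named, and counts are over those averaging 1 TPM or more. Motifs were chosen after the promoter windows had been read. Genes of like level are those with a mean TPM within 2-fold. The calculation was tested on simulated data, with noise smaller than the spread of genes of like level in these libraries. No simulated fold lay between 1.5-fold and 2-fold, so that test says nothing of how reliable the calls of members are. Python 3.11.15, numpy 2.4.6, pandas 2.3.3 and matplotlib 3.10.9 were used.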

Additional observations from a re-analysis of the deposited data

How the results depend on the processing

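The 3 genes lower past 1.5-fold (TFPI2, PLAU and SERPINB2) and the counts of 0 in the other calls of members were the same with a pseudocount of 0.1 or 0.01 TPM, without a pseudocount, with median-ratio scaling, with curated transcripts only and with a minimum mean of 1 TPM. For the 3 calls, a smaller pseudocount could only enlarge the difference, and the median-ratio factor was 1.003, so these settings could hardly undo them. The minimum mean, which leaves out only THBD, could not change them. None of the 45 recomputed member differences moved by more than the spread of genes of like level, taken between their 16th and 84th percentiles, and none changed direction by that much. SERPINB2 lies closest to the criterion. The call of SERPINI1 did not change under a pseudocount of 0.1, median-ratio scaling or a minimum mean of 10 TPM. With its mean of 20.7 TPM, these settings could hardly undo that call either.

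The background shares depend on the genes counted. With a minimum mean of 10 TPM, 1.66% of genes were higher and 1.30% lower past 1.5-fold, and 0.512% and 0.501% past 2-fold. With no minimum these were 2.06%, 1.48%, 0.815% and 0.714%. With protein-coding genes only they were 0.972%, 0.739%, 0.149% and 0.191%.

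No paired analysis was possible because each condition has a single library, and no library was left out for the same reason. TPM keeps no depth, so values near 0, such as those of THBD, have no known precision.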
